A study of Mus musculus with 22 samples.

Results

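Regions enriched for trimethylated lysine 4 of histone H3 (H3K4me3) were compared between differentiated and undifferentiated MC3T3-E1 cells, a mouse pre-osteoblast line that lays down mineralized matrix in osteogenic culture. Every region on chromosomes 1 to 19 and X in the 2 H3K4me3 lists made with calcitriol, the hormonal form of vitamin D, was taken, with no selection on values. The differentiated list held 8994 regions and the undifferentiated list 6983, together 15977 of the 360258 regions in the 22 lists of the series. The differentiated cells had been kept for 15 days with 10 mM glycerol-2-phosphate and 50 µg/mL ascorbic acid, and the undifferentiated cells without these additives. Both received 100 nM calcitriol for 3 h before cross-linking, both were used at passages 5 to 12, and both were precipitated with the same antibody to H3K4me3. The labels' protocols add that only differentiated cultures were homogenized and centrifuged through sucrose, which takes away mineralized matrix, so preparation and state cannot be told apart. Each state has 1 list, read as the overlap of replicates, since 99.4% of the differentiated and 97.8% of the undifferentiated regions carry names that count 2 merged peaks. No replicate has a list of its own, so no difference between the states could be tested. The exact Clopper-Pearson 95% intervals given beside shares cover counting error only, and regions are not replicates. The lists hold no read counts, and sequencing depth is unknown.

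H3K4me3 is laid down around the starts of active and poised genes by SET1 and MLL methyltransferase complexes and removed by demethylases of the KDM5 family. It is found with acetylated H3K9 at active promoters, whereas H3K4me1 marks promoter flanks and enhancers and H3K36me3 marks the bodies of transcribed genes. CpG-rich promoters carry it in most tissues, and wide H3K4me3 domains are known for covering genes that define a cell type. In osteoblasts such genes include Runx2 and Sp7, the transcription factors of the lineage, and the collagen and mineralization genes that they control.

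The cell label was read against markers in the lists. Of 18 osteoblast transcription factors, 14 were marked in both states, Runx2 and Sp7 among them. Of 30 bone matrix genes, 18 were marked in both states, Col1a1 and Col1a2 among them, and 7 in neither, among them Ibsp, Bglap and Alpl. Of 12 tendon and fibroblast genes, 4 were marked in both states, and of 15 chondrocyte genes, 2, beside 34.7% of all protein-coding genes. In contrast, 0 of 13 blood and immune genes and 0 of 12 neural genes were marked in either state. Of 15 muscle genes, Acta2 and Pax3 were marked in both states, and of 10 endothelial genes, Flt1 was.

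The promoters of 4 genes are shown as examples of starts that differed between the states, not as a sample of them. CpG dinucleotides are in capitals to show how unlike their base composition was. Each is the 250 bp upstream of the gene's 5′ end, read 5′ to 3′ on the gene's strand from build mm9 (NCBIM37) with the GENCODE vM1 annotation. Phospho1, which encodes the phosphatase that frees phosphate for mineralization in matrix vesicles, and Ogn, which encodes the small proteoglycan osteoglycin, were marked in differentiated cells only. Twist2, which encodes a basic helix-loop-helix factor known to restrain osteoblast differentiation, and Col2a1, which encodes the main collagen chain of cartilage, were marked in undifferentiated cells only. The stretches lie at chr11:95685563-95685812 (plus strand), chr13:49703190-49703439 (plus strand), chr1:93697788-93698037 (plus strand) and chr15:97835156-97835405 (minus strand), in the order printed.
Phospho1: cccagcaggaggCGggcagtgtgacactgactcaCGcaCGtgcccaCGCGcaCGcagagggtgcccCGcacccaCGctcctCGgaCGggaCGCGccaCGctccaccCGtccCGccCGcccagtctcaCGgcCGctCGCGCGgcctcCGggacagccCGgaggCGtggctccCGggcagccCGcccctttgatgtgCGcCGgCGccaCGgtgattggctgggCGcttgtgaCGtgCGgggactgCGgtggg
Ogn: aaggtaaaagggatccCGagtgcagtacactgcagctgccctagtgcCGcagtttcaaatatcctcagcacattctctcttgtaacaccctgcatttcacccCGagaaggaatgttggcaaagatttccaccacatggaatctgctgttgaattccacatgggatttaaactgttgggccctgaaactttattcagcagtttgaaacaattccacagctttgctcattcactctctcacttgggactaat
Twist2: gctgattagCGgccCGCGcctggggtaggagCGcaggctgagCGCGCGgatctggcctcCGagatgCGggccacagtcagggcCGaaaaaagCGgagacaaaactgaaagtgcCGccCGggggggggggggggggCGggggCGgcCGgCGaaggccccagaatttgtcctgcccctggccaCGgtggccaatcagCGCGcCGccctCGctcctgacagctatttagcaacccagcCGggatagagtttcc
Col2a1: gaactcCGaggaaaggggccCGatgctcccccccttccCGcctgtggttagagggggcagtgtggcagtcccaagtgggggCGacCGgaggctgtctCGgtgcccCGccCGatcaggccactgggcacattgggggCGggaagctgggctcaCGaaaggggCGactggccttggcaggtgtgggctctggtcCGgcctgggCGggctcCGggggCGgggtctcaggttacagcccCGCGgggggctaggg
The Phospho1 stretch holds 34 CpGs and the Ogn stretch 3, so both CpG-rich and CpG-poor promoters were among those marked in differentiated cells only. Twist2 holds 23 CpGs and Col2a1 17, and both lay at undifferentiated regions that met no differentiated region. None of the 4 stretches contains TATAAA, the TATA-box core, on either strand.

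Differentiated cells had more H3K4me3 regions but much narrower ones. The median region was 2225 bp wide in differentiated cells and 5256 bp in undifferentiated cells, a ratio of 0.423, and the 90th percentiles were 3725 and 14055 bp (ratio 0.265). Regions under 2 kb made up 38.8% of the differentiated list and 2.94% of the undifferentiated list. At the other end, 261 differentiated regions (2.90%) and 3702 undifferentiated regions (53.0%) reached 5 kb. Regions of at least 10 kb numbered 20 in differentiated and 1309 in undifferentiated cells, and held 1.42% and 45.5% of the length covered in each. The covered length of 22.2 Mb in differentiated cells was 0.433 of the 51.3 Mb in undifferentiated cells.

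**Figure D1:**
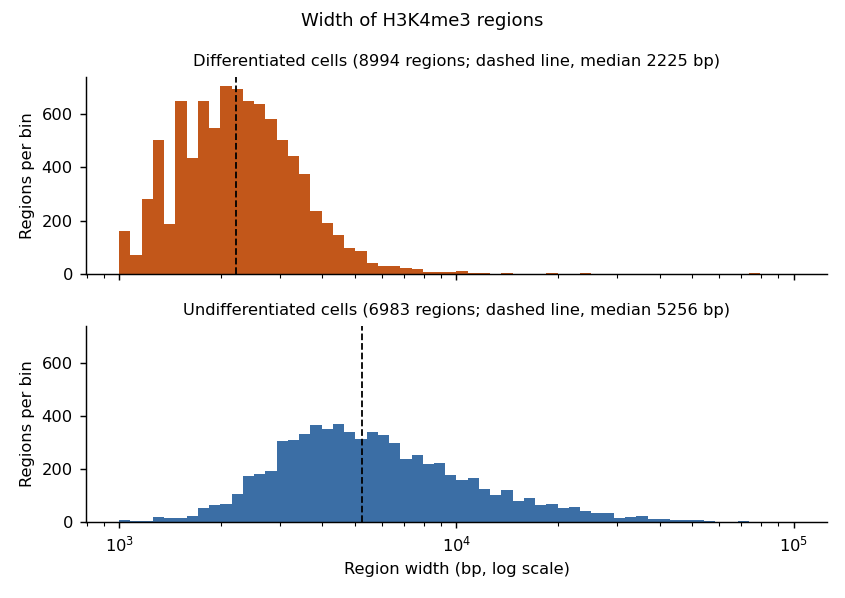
Histograms of region width (bp, log scale) against the number of regions per bin for differentiated (upper panel) and undifferentiated cells (lower panel), with dashed lines at the medians. The differentiated regions gather around a median of 2225 bp, and the undifferentiated regions spread from about that width to far wider ones around a median of 5256 bp.

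Most regions lay at the same places in both states. Of the differentiated regions, 6963 (77.4%, 76.5 to 78.3) overlapped an undifferentiated region by at least 1 bp, and of the undifferentiated regions, 6771 (97.0%, 96.5 to 97.4) overlapped a differentiated one. Of the shared differentiated regions, 6005 (86.2%) lay wholly inside an undifferentiated region. In 6585 pairs in which 1 region met exactly 1 other, the differentiated region was narrower in 6449 (97.9%) and wider in 136, with a median ratio of 0.485 and an interquartile range of 0.338 to 0.623. Of the 33.1 Mb covered in undifferentiated cells only, 31.9 Mb lay in the flanks of shared regions.

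Regions present in 1 state only were smaller and had lower scores than shared ones. The 2031 differentiated-only regions (22.6%) had a median width of 1600 bp, against 2433 bp for the shared differentiated regions, and lay a median of 55.9 kb from the nearest undifferentiated region. The 212 undifferentiated-only regions (3.04%) had a median width of 3500 bp, against 5317 bp for the shared undifferentiated regions. The score deposited with each region, for which no meaning is stated, had a median of 159.8 in differentiated-only and 542.9 in shared differentiated regions. In undifferentiated-only regions its median was 305.3, and in shared undifferentiated regions 511.3. Of the differentiated-only regions, 90.6% (89.2 to 91.8) lay within 1 kb of a protein-coding start, whereas of the undifferentiated-only regions 66.0% (59.2 to 72.4) did. The part of list length and of score in the differentiated-only set was not tested.

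The ratio of differentiated to undifferentiated width was smaller where the undifferentiated region was wide. For each shared undifferentiated region, the full widths of the differentiated regions that overlapped it were summed and divided by its width. The classes were set by the undifferentiated width, which is also the divisor of this ratio. A fall across classes can follow from such sorting, and its part was not tested. In the narrowest 25% of undifferentiated regions the median ratio was 0.666, and in the widest 10% it was 0.175. These widest regions had a median width of 19737 bp in undifferentiated cells. The differentiated regions that overlapped them had a median summed width of 3548 bp, more than the 1828.5 bp in the narrowest 25%. Nearly all undifferentiated regions of these classes still overlapped a differentiated region, 98.0% (96.7 to 98.9) in the widest 10% and 93.6% (92.4 to 94.7) in the narrowest 25%.

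The narrowing ran in both directions from the start and was longer into the gene. It was measured at 1306 isolated genes marked in both states, with all annotated starts within 500 bp and no start of another gene within 20 kb. The region reached a median of 1725 bp into the gene in differentiated cells and 3642 bp in undifferentiated cells, a ratio of 0.474. Upstream it reached 711 bp in differentiated and 1391 bp in undifferentiated cells, a ratio of 0.511. The start itself was covered at 97.1% of these genes in differentiated cells and at 98.0% in undifferentiated cells. At 3 kb into the gene, the shares were 8.88% in differentiated and 61.3% in undifferentiated cells.

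**Figure D2:**
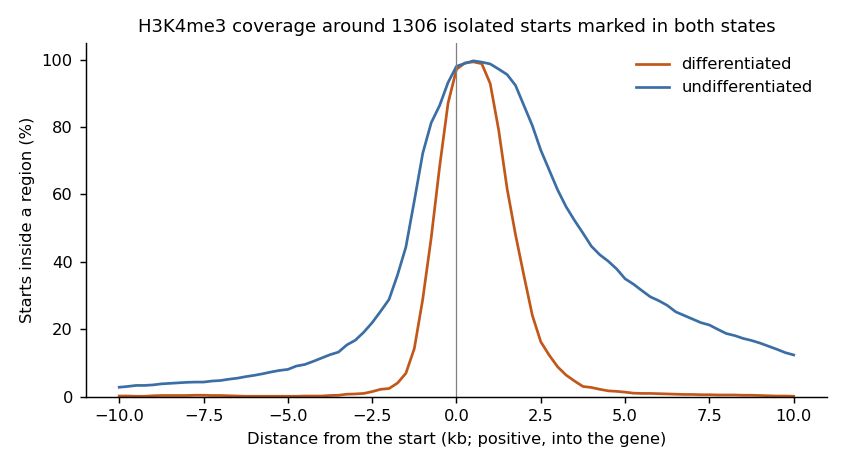
Share of 1306 isolated starts marked in both states (%) that lay inside an H3K4me3 region at each distance from the start (kb, positive into the gene), for differentiated and undifferentiated cells. Both curves come close to 100% at the start, and at 3 kb into the gene the differentiated curve is at 8.88% and the undifferentiated curve at 61.3%.

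The flanks that lost H3K4me3 still carried other marks. In differentiated cells, H3K4me1 regions covered 97.7% of the 31.9 Mb of flank that only the undifferentiated H3K4me3 list held, and in undifferentiated cells 99.5%. H4K5ac, another acetylation of active chromatin, covered 81.2% in differentiated and 90.4% in undifferentiated cells. H3K9ac covered 52.9% of this flank in differentiated and 45.2% in undifferentiated cells. H3K36me3 covered 59.5% of this flank in differentiated and 67.9% in undifferentiated cells. Over whole autosomes, the length covered in differentiated over undifferentiated cells had a median ratio of 1.32 for H3K9ac and 0.837 for H4K5ac. For H3K4me1 this ratio was 0.993 and for H3K36me3 0.890. Of the flank, 11.6% lay within 1 kb of a protein-coding start, against 70.3% of the bases marked with H3K4me3 in both states.

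Gene starts were then classed by whether an H3K4me3 region came within 1 kb of any annotated start of the gene. Of 22214 protein-coding genes, 9607 (43.2%) were marked in differentiated cells and 7965 (35.9%) in undifferentiated cells. Both states marked 7703 genes (34.7%, 34.1 to 35.3), called kept here. Only differentiated cells marked 1904 genes (8.57%, 8.21 to 8.95), called gained, and only undifferentiated cells marked 262 (1.18%, 1.04 to 1.33), called lost. Gained genes were 19.8% of those marked in differentiated cells, and kept genes were 96.7% of those marked in undifferentiated cells. With the 5000 regions of highest score taken from each list, which equalizes the list lengths and raises the score threshold together, 1185 genes were gained and 1285 lost.

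Gains and losses differed in kind. Of the gained genes, 1901 of 1904 lay at differentiated regions that met no undifferentiated region, and for 1699 (89.2%, 87.8 to 90.6) the nearest undifferentiated region was over 10 kb away. Their regions were small, with a median width of 1635 bp, against 2510 bp at kept starts in the same list. Of the lost genes, 138 (52.7%, 46.4 to 58.8) had a start in or within 1 kb of an undifferentiated region with no differentiated counterpart. These regions had a median width of 3450 bp. The other 124 (47.3%) had a start in or within 1 kb of an undifferentiated region that overlapped a differentiated region, but no differentiated region came within 1 kb of their starts. From these genes the region is said here to have narrowed away. The undifferentiated regions had a median width of 9742 bp and a minimum of 1781 bp. For these 124 genes the nearest differentiated region was a median of 3.16 kb away.

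Among 30 genes of bone matrix and mineralization, 18 were kept, 4 gained (13.3%), 1 lost and 7 unmarked. Over all protein-coding genes, 34.7% were kept, 8.57% gained and 1.18% lost, and the counts of every list below stand beside these shares. The gained bone matrix genes were Phospho1 and 3 small leucine-rich proteoglycans that bind collagen fibrils, Dcn (decorin), Lum (lumican) and Ogn. Phospho1 had a region of 2787 bp in differentiated cells, at chr11:95685471-95688257, and the nearest undifferentiated region was 108 kb away. Ogn had a region of 2968 bp at chr13:49703083-49706050, Lum 2267 bp and Dcn 1539 bp in differentiated cells, with none within 1 kb in undifferentiated cells. Ifitm5, which encodes a membrane protein of osteoblasts, was lost. It had lain beside an undifferentiated region of 12758 bp that narrowed to end 3.62 kb from it in differentiated cells.

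The kept bone matrix genes had wide undifferentiated regions, with a median of 19066 bp, against 5447 bp over all kept genes. Their median ratio of region width in differentiated over undifferentiated cells was 0.237, beside 0.482 over all 7703 kept genes, and 10 of 18 fell under 25% of the undifferentiated width, beside 15.3% of all kept genes. The widest 10% of all undifferentiated regions had a median of 19737 bp. There the median ratio of the summed width of overlapping differentiated regions to the undifferentiated width was 0.175. The part of the wide undifferentiated regions in the low ratio of the bone matrix genes was not tested. Mgp, which encodes the calcification inhibitor matrix Gla protein, had 2575 bp in differentiated and 49269 bp in undifferentiated cells. Col5a1, a chain of the fibril-nucleating collagen V, had 4674 bp in differentiated and 57972 bp in undifferentiated cells. Bgn, the proteoglycan biglycan, had 2672 and 28169 bp in differentiated and undifferentiated cells. The collagen I genes kept wider regions than these in differentiated cells: Col1a1 had 10651 bp, against 35132 bp in undifferentiated cells, and Col1a2 had 6778 bp, against 66636 bp. The phosphate handling genes Ank, Slc20a1 and Slc20a2 had narrow regions in both states and the highest ratios of the list, between 0.570 and 0.632. Every kept member of the list was narrower in differentiated cells, as were 98.1% of all kept genes.

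Several classical genes of mineralizing osteoblasts had no H3K4me3 region within 1 kb of a start in either state. These were Ibsp (bone sialoprotein), Bglap and Bglap2 (osteocalcin), Alpl (tissue-nonspecific alkaline phosphatase), Enpp1, Omd and Smpd3. Bglap and Bglap2 are near-identical copies, at which reads can be lost or split. At the Alpl start, H3K9ac regions spanned 13391 bp in differentiated and 1517 bp in undifferentiated cells, while the nearest H3K4me3 region was 64.9 kb away in differentiated and 62.6 kb in undifferentiated cells.

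Among 18 osteoblast transcription factors, 14 were kept, 2 were lost, 2 were unmarked and none was gained. Runx2 had a region of 8040 bp in differentiated cells, at chr17:44945671-44953710, inside a region of 24163 bp in undifferentiated cells, at chr17:44933967-44958129. Sp7 (osterix) had 3875 bp in differentiated and 24197 bp in undifferentiated cells, and Prrx1, a homeobox gene of mesenchymal progenitors, 10079 and 78940 bp in differentiated and undifferentiated cells. The median ratio of the list was 0.336 and its median undifferentiated width 18246 bp, beside 0.482 and 5447 bp over all kept genes. Twist2 lost a region of 4536 bp and Msx2, a homeobox gene, lost one of 3497 bp whose edge lay 0.326 kb from its start. In differentiated cells the nearest region to Twist2 was 259.7 kb away and the nearest to Msx2 95.2 kb.

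**Figure D3:**
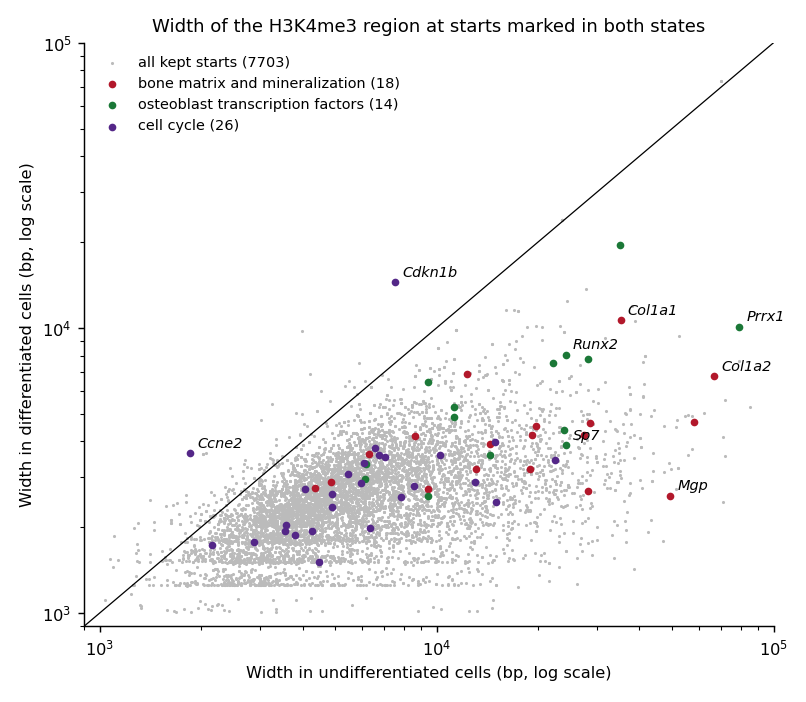
Width of the widest H3K4me3 region at the start of each of 7703 genes marked in both states, in differentiated cells (y axis, bp, log scale) and undifferentiated cells (x axis, bp, log scale), with bone matrix, osteoblast transcription factor and cell cycle genes in colour and equal widths on the diagonal. Of these genes, 98.1% lie below the diagonal, Mgp, Col1a2 and Prrx1 far below it, and Cdkn1b and Ccne2 above it.

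Of 9 osteocyte genes in the annotation, Pdpn, Capg and Fam20c were gained (33.3%, beside 8.57% of all genes) and Irx5 was kept. Pdpn encodes podoplanin, a membrane glycoprotein of early osteocytes, and had a region of 2914 bp in differentiated cells. Fam20c encodes the Golgi kinase that phosphorylates secreted matrix proteins and had 2803 bp, and Capg, an actin capping protein, had 1143 bp. The genes of the mature osteocyte, Dmp1, Mepe, Phex, Sost and Fgf23, were unmarked in both states.

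Of 35 BMP and TGF-beta genes, 21 were kept, 2 gained (5.71%, beside 8.57% of all genes) and none lost. The kept ones had a median ratio of 0.244 and a median undifferentiated width of 14309 bp, beside 0.482 and 5447 bp over all kept genes. Of the 21, 11 were under 25% of the undifferentiated width, beside 15.3% of all kept genes. Tgfb3, which encodes a ligand, had 4218 bp in differentiated and 38413 bp in undifferentiated cells, and the receptor gene Tgfbr2 had 3863 and 36446 bp in differentiated and undifferentiated cells. Smad1, which encodes a BMP signal transducer, narrowed least in this list, with 2592 bp in differentiated and 3019 bp in undifferentiated cells. The gained members were Grem1, a secreted BMP antagonist, with 2754 bp, and Ltbp1, which binds latent TGF-beta, with 3780 bp in differentiated cells. Of 33 Wnt genes, 15 were kept, 15 unmarked, 3 gained (9.09%, near the 8.57% of all genes) and none lost, with a median ratio of 0.546. The gained genes were the receptor gene Fzd6 (1273 bp in differentiated cells) and 2 that encode nuclear partners of beta-catenin, Lef1 (3160 bp) and Tcf7 (1119 bp). Tcf7l2, of the same factor family, was kept with 7631 bp in differentiated and 79134 bp in undifferentiated cells. Axin2, a feedback inhibitor of Wnt signalling, and Fzd8 were wider in differentiated cells, at 3230 and 2398 bp, against 2822 and 2093 bp in undifferentiated cells. Axin2 was gained without the lowest 25% of each list by score, and both were gained with the 5000 regions of highest score.

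Of 12 vitamin D response genes, 6 were kept and 6 unmarked. Vdr, the receptor gene, had 2649 bp in differentiated and 22162 bp in undifferentiated cells, but the differentiated region did not reach within 1 kb of the 5′ end: with only the gene's own 5′ end, Vdr was lost. Rxra, which encodes its dimerization partner, had 3829 and 11852 bp in differentiated and undifferentiated cells. Cyp24a1, the calcitriol-degrading hydroxylase gene, was unmarked in both states, although both lists were made with calcitriol. Of 16 genes of osteoclast coupling and cytokines, 6 were kept and Lif was gained. The kept ones had a median ratio of 0.199 and a median undifferentiated width of 16696 bp, beside 0.482 and 5447 bp over all kept genes. The Lif region, 1794 bp in differentiated cells, lay at another annotated start, and with only the gene's own 5′ end Lif was unmarked. Csf1, which encodes a growth factor of osteoclast precursors, had 4765 bp in differentiated and 51556 bp in undifferentiated cells. Tnfrsf11b (osteoprotegerin) had 2462 bp in differentiated and 9441 bp in undifferentiated cells, and its ligand gene Tnfsf11 was unmarked in both.

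Lists of other mesenchymal lineages held gains and losses in small numbers. Over all genes, 8.57% were gained and 1.18% lost. Of 15 chondrocyte genes, Sox9 and Sox6 were kept, Sox5 and Col11a1 were gained and Col2a1 was lost. Of 12 tendon and fibroblast genes, 4 were kept, Mkx and Egr1 were gained and S100a4 was lost. Of 12 adipocyte genes, Cebpa was gained with 1775 bp, Cebpb was kept with 3702 bp in differentiated and 19943 bp in undifferentiated cells, and the other 10, Pparg and Adipoq among them, were unmarked. Of 17 matrix proteases and inhibitors, 9 were kept and Ctsk (cathepsin K), Htra1 and Mmp16 were gained. Of 28 Hox genes, 23 were unmarked, 4 were gained, Hoxa3 and Hoxc6 among them, and Hoxc9 was lost.

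Genes of the cell cycle, of H3K4 methylation and of housekeeping functions were mostly marked in both states. Of 30 cell cycle genes, 26 were kept with a median ratio of 0.499, and Mcm6, a subunit of the replicative helicase, was gained. Cdkn1b, which encodes the cell cycle inhibitor p27, had 14448 bp in differentiated and 7521 bp in undifferentiated cells, and Ccne2 (cyclin E2) 3633 and 1853 bp in differentiated and undifferentiated cells. They are 2 of the 149 kept genes (1.93%) with a wider region in differentiated cells. The undifferentiated Ccne2 region lay 0.171 kb from a start, and without the lowest 25% of each list by score Ccne2 was gained. All 20 genes of the H3K4 methylation machinery were marked in differentiated cells, 19 of them kept with a median ratio of 0.571. Ash2l, which encodes a core subunit of the SET1 and MLL complexes, was gained with 3162 bp. This region lay at another annotated start, and with only the gene's own 5′ end Ash2l was unmarked. Among 18 housekeeping genes, 15 were kept with a median ratio of 0.385, and Hprt, Sdha and Gusb were gained with 1510, 2445 and 1411 bp in differentiated cells.

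Of the 30 gained members of these lists, 9 remained gained with the 5000 regions of highest score from each list, namely Lum, Ogn, Pdpn, Fam20c, Lef1, Grem1, Htra1, Ash2l and Sdha. The other 21, Phospho1, Dcn and Col11a1 among them, were then unmarked in both states. Of the 6 lost members, all but Col2a1 remained lost. With the start itself required inside a region, Msx2, Ifitm5 and Hoxc9 were no longer marked in either state. With only the gene's own 5′ end, 28 of the 30 gained members remained gained, and Lif and Ash2l were unmarked.

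**Figure D4:**
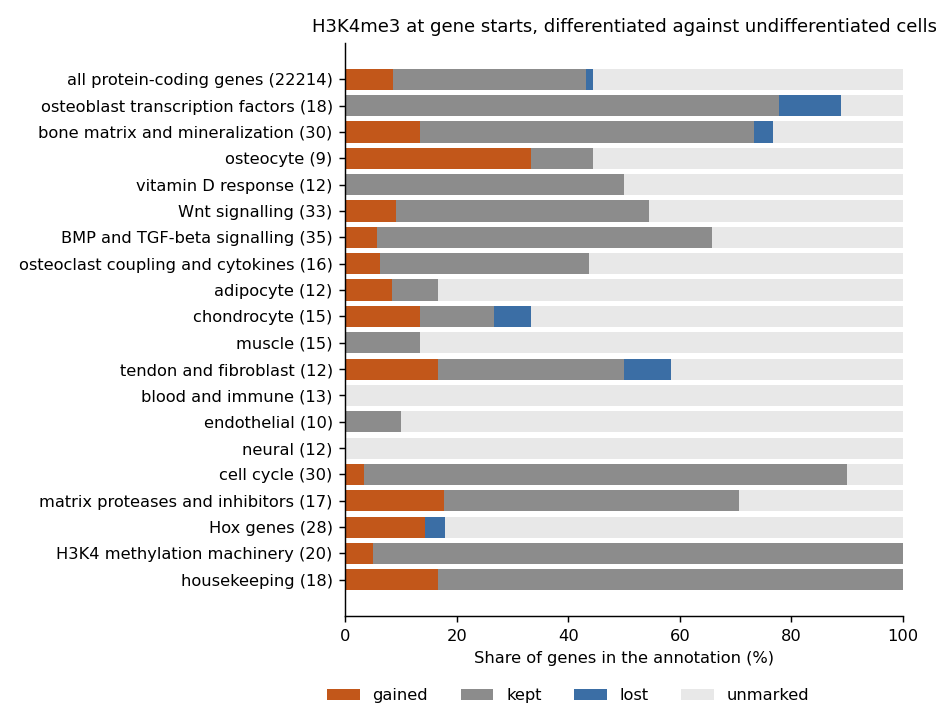
Share of the genes of each list (%; number of genes in parentheses) whose starts were gained in differentiated cells, kept in both states, lost, or unmarked, with all 22214 protein-coding genes at the top. Gained genes are 8.57% of all genes and 4 of 30 bone matrix genes, and no blood or neural gene is marked in either state.

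The extremes over all genes lay outside these lists for the most part. Leaving out predicted genes with Gm names, of which 2 had the widest gained region, 7078 bp, the widest gained regions belonged to Fau and Mrpl49, which share a start region of 6201 bp, and to Clec16a and Dexi (5414 bp). The widest lost region, 71839 bp, covered Smurf1, which encodes a ubiquitin ligase of BMP signalling, at chr5:145656580-145728418. H3K9ac at the Smurf1 start spanned 4434 bp in differentiated and 4438 bp in undifferentiated cells. Fosl1, an AP-1 gene, and its neighbour Ctsw lay in an undifferentiated region of 37492 bp that narrowed away from them. Il34, which encodes a ligand of the CSF1 receptor, lay 0.22 kb outside an undifferentiated region of 43611 bp, and with a window of 2.5 kb it was kept. Erp27, also lost, lay 0.213 kb outside the undifferentiated region of 49269 bp that covered Mgp. The lowest ratio among kept genes was that of Pgs1, with 2446 bp in differentiated and 70828 bp in undifferentiated cells. The highest was that of Nr2f1, which encodes an orphan nuclear receptor, with 9734 and 3995 bp in differentiated and undifferentiated cells. Without the lowest 25% of each list by score, Nr2f1 was gained.

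Nearly all starts that gained H3K4me3 carried H3K9ac in both states, as did kept starts. An H3K9ac region lay within 1 kb of 1902 gained starts (99.9%) in differentiated cells and of 1898 (99.7%, 99.3 to 99.9) in undifferentiated cells. At kept starts these shares were 99.97% in differentiated and 100% in undifferentiated cells, and at unmarked starts 14.9% in differentiated and 11.4% in undifferentiated cells. Over the bases of differentiated-only regions, H3K9ac covered 99.3% in differentiated and 98.7% in undifferentiated cells. H3K9ac at the start thus appeared with H3K4me3 in 6 gained genes, of which Col11a1 was the only list member. Col11a1, a chain of the minor cartilage collagen XI, had an H3K9ac region of 5355 bp in differentiated cells and none in undifferentiated cells. Of all lost starts, 90.5% had H3K9ac in differentiated and 86.3% in undifferentiated cells. It lay at 134 of the 138 starts whose region was gone (97.1%, 92.7 to 99.2) in each state, with 2 starts changing each way. At the 124 starts from which a region had narrowed away, the shares were 83.1% in differentiated and 74.2% in undifferentiated cells. Hoxc9, with 38497 bp of H3K9ac in undifferentiated cells, was among 4 lost genes with H3K9ac at the start in undifferentiated cells only. In 15 lost genes H3K9ac was at the start in differentiated cells only.

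H3K36me3, the mark of transcribed gene bodies, was read beside these classes. It covered at least 50% of the gene in 65.7% (63.5 to 67.8) of gained genes in differentiated and 69.7% (67.6 to 71.8) in undifferentiated cells. In kept genes the shares were 84.9% in differentiated and 88.1% in undifferentiated cells, and in genes whose region was gone 41.3% (33.0 to 50.0) and 51.4% (42.8 to 60.0) in differentiated and undifferentiated cells. The body passed 50% in differentiated cells only in 55 gained genes (2.89%, 2.18 to 3.74), against 0.922% (0.721 to 1.16) of kept genes. The reverse held for 131 gained genes (6.88%) and 4.17% of kept genes. Phospho1 was among the 55, with 59.7% of its length covered in differentiated cells and 0% in undifferentiated cells. The other gained bone matrix genes, Dcn, Lum and Ogn, passed 50% in both states. Dcn had 94.5% in differentiated and 98.8% in undifferentiated cells, Lum 68.7% and 100%, and Ogn 96.9% and 100%. Chosen after their values were seen, Slc40a1, which encodes the iron exporter ferroportin, had 96.0% in differentiated and 0% in undifferentiated cells. Tcf7 had 89.2% in differentiated and 36.1% in undifferentiated cells, and Ednra, an endothelin receptor gene, had 94.5% in differentiated and 40.7% in undifferentiated cells. Of the 138 genes whose region was gone, 18 (13.04%, 7.92 to 19.8) passed 50% in undifferentiated cells only, against 3 of the 124 genes from which a region had narrowed away (2.42%) and 2.99% of all genes. Chosen in the same way, these included Asf1b, a histone chaperone gene of replicating cells, with 0% in differentiated and 81.4% in undifferentiated cells. Fanci, a DNA repair gene, had 30.5% in differentiated and 87.7% in undifferentiated cells, and Pkp2, a desmosome gene, had 0% in differentiated and 73.6% in undifferentiated cells.

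Transcription factor sites were fewer at gained than at kept starts. RUNX2, the lineage factor, had a site within 1 kb of 8.98% (7.73 to 10.4) of gained starts in differentiated and 18.2% (16.5 to 19.98) in undifferentiated cells. At kept starts the shares were 13.7% (12.9 to 14.5) in differentiated and 29.7% (28.7 to 30.7) in undifferentiated cells. With the start itself in place of the 1 kb window, the undifferentiated shares were 8.16% at gained and 15.1% at kept starts. The retinoid X receptor had sites at 8.56% of gained and 15.4% of kept starts in differentiated cells. The vitamin D receptor had sites at 2.26% of gained and 3.74% of kept starts in differentiated cells. The C/EBPβ shares were nearer, at 15.1% (13.5 to 16.8) of gained and 17.4% (16.5 to 18.2) of kept starts in differentiated cells.

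Base composition placed gained starts between kept and unmarked ones. An observed over expected CpG ratio of at least 0.6 in the 500 bp on either side was found at 72.7% (70.6 to 74.7) of gained starts, 86.2% (85.4 to 86.9) of kept starts and 18.8% (18.1 to 19.5) of unmarked starts. Phospho1 and Ogn, whose promoters are printed above, show both ends of the gained class. Lost starts whose region was gone resembled gained ones, at 74.6% (66.5 to 81.7), whereas lost starts from which a region had narrowed away stood at 17.9% (11.6 to 25.8). The letters TATAAA, searched on both strands in the 250 bp upstream, were found at 5.62% (4.63 to 6.75) of gained, 3.66% (3.25 to 4.11) of kept and 17.7% (17.0 to 18.3) of unmarked starts, beside 11.6% of all starts. TGTGGT, the core of the RUNX element, searched in the same way and overlapping TATAAA by at most 1 letter, was found at 9.61% of gained, 8.38% of kept and 14.9% of unmarked starts, beside 12.1% of all starts, and is present in the Ogn and Col2a1 stretches.

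The X chromosome lay outside the range of the autosomes. It held 269 regions in differentiated and 135 in undifferentiated cells, a ratio of 1.99, whereas the ratios of the autosomes lay between 1.13 and 1.55. Of its differentiated regions, 50.9% had no undifferentiated counterpart, against 11.4% to 37.2% on the autosomes, where chromosome 13 was the highest. Of 927 X-linked genes, 135 (14.6%, 12.4 to 17.0) were gained, against 8.31% (7.94 to 8.69) of 21287 autosomal genes. By covered length, X lay outside the autosomal range for the other marks too, on the opposite side. Its ratio of H3K4me3 length, 0.818, was above the autosomal range of 0.362 to 0.555. Its ratio of H3K9ac length, 1.14, was below the range of 1.24 to 1.40, and that of H4K5ac, 0.731, just below the range of 0.734 to 0.920. The length ratios of H3K4me1 (0.825, range 0.941 to 1.04) and H3K36me3 (0.657, range 0.774 to 0.930) were below every autosome as well. By number of regions, X was below every autosome for H3K4me1 (0.925, range 1.01 to 1.11), and within the range for H3K9ac (1.25, range 1.23 to 1.44), H4K5ac (0.781, range 0.710 to 0.832) and H3K36me3 (0.841, range 0.823 to 1.03).

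At acetylated starts X stood apart in the undifferentiated list. Among 324 X-linked starts with H3K9ac in both states, H3K4me3 was present at 84.0% (79.5 to 87.8) in differentiated cells, within the autosomal range of 77.0% to 89.8%. In undifferentiated cells it was present at 43.8% (38.3 to 49.4), below the autosomal range of 53.2% to 81.9%. Hprt, the X-linked housekeeping gene, was among those gained. X-linked H3K4me3 regions scored low in both lists, with 24.5% in differentiated and 24.4% in undifferentiated cells above the median score of their list, whereas the autosomes lay between 38.8% and 63.2% in differentiated and between 38.7% and 64.4% in undifferentiated cells. For H3K9ac the X shares were 49.5% in differentiated cells, within the autosomal range of 42.8% to 56.1%, and 41.4% in undifferentiated cells, below the range of 43.4% to 57.2%. The part of these scores in the number of X-linked regions called was not tested.

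**Figure D5:**
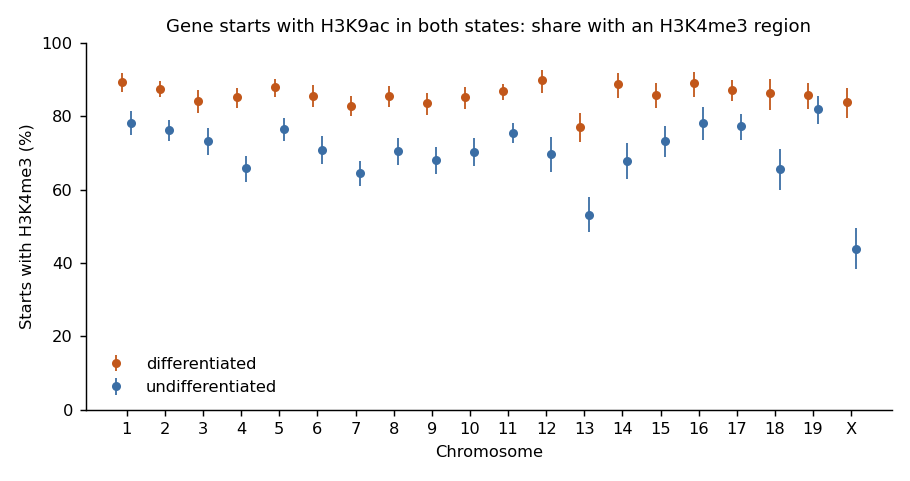
Share of gene starts with H3K9ac in both states that carried an H3K4me3 region (%), by chromosome, in differentiated and undifferentiated cells, with exact 95% intervals that cover counting error only. In differentiated cells X lies with the autosomes at 84.0%, and in undifferentiated cells it is the lowest at 43.8%, with chromosome 13 next at 53.2%.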

How the data were processed

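ChIP-seq region lists of MC3T3-E1 cells were used, 1 for each antibody and state, all with calcitriol. Vehicle H3K4me3 lists were not analysed here. The submitters' processing notes name Bowtie, HOMER and build mm9, with no versions, and thresholds are not stated. Each region deposited by the authors has coordinates, a name that counts merged peaks and a score. The score deposited by the authors has no stated meaning and was used only to describe regions, rank them within a list and build alternatives.

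Regions were intersected in Python 3.11.15 with NumPy 2.4.6, exact intervals came from SciPy 1.17.1 and plots from matplotlib 3.10.9. GENCODE vM1 gave 22214 protein-coding genes after records of a symbol on the same strand within 100 kb were joined. A gene was marked when a region overlapped 1 kb on either side of any annotated start, and its width was that of the widest such region. Classification was tested on simulated regions at isolated genes with a single start, with all classes recovered. Genes with several starts or close neighbours were not simulated. Overlap queries on the undifferentiated H3K4me3 list were tested against a brute-force search, and all matched. H4K5ac follows the sample labels, since the protocol text names another residue. Base composition was taken at the marked start nearest the centre of its region, or at the gene's 5′ end where unmarked.

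The 2 lists and the 19 gene lists (355 of 359 genes in the annotation) were chosen with earlier results of these data known. Genes were named by a rule: list members gained or lost, the 10 widest gained and lost, the 5 highest and lowest width ratios, and up to 3 highest and lowest ratios per list. Other genes were named after their values were seen. Alternatives covered score thresholds, start windows, joining and overlap rules, and sequence windows. Some genes that the rule names are not reported here.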

Additional observations from a re-analysis of the deposited data

Results flagged for a closer look

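Outside the chromosomes compared, the H3K4me3 lists held 5 regions on chromosome Y in differentiated and 3 in undifferentiated cells, and 2 on the mitochondrial genome in each state. No comparison above used these regions.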

How the results depend on the processing

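No paired analysis was possible because each state has 1 list and no replicate has a column or list of its own; for the same reason no replicate could be left out. Joining regions less than 1 kb apart left every value unchanged, so it says nothing about how stable the results are. Requiring an overlap of at least 50% of the shorter region, applied to the shared shares only, moved neither beyond its interval. Without the lowest 25% of each list by score, the ratio of covered lengths was 0.427, the ratio of median widths 0.416, the shared share 72.5% of differentiated and 91.4% of undifferentiated regions, the Jaccard index 0.295 (0.330 with all regions), the lost genes 559, the median width ratio at kept starts 0.468, gained starts with H3K9ac in undifferentiated cells 99.9% and lost starts with H3K9ac in differentiated cells 96.2%. With the 5000 regions of highest score from each list, which makes the ratio of numbers 1 by construction, the same quantities were 0.356, 0.450, 79.0%, 77.7%, 0.270, 1285, 0.467, 100% and 98.4%, with 1185 genes gained and 4588 kept. The median width ratio at kept starts was 0.481 with the start inside a region and with a window of 2.5 kb, and 0.486 with the gene's own 5′ end. On chromosomes 1 to 19 only, chosen after seeing the data, it was 0.481, the ratio of numbers 1.27, of covered lengths 0.428, of median widths 0.424, and 78.3% of differentiated regions were shared. With 250 bp before to 50 bp after the start, the CpG ratio was at least 0.6 at 75.4% of gained, 87.0% of kept and 20.1% of unmarked starts. At the gene's own 5′ end, also chosen after seeing the data, it was so at 68.0% of gained and 83.4% of kept starts. The cause of these differences was not tested beyond the settings named. Of 135 named genes, 26 changed class without the lowest 25%, 41 with the 5000 highest, 13 with the start inside, 2 with the 2.5 kb window and 6 with the own 5′ end, and none went between gained and lost. With no read counts the depth is unknown, and a region missing from a list may lie below the authors' threshold.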

Other observations

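Replication-dependent histone genes, a group chosen after its values were seen, were mostly unmarked by H3K4me3. Of 67 genes with a Hist symbol, 2 were kept, 14 gained, 4 lost and 47 unmarked, beside 34.7% kept, 8.57% gained, 1.18% lost and 55.6% unmarked over all protein-coding genes. Of the unmarked ones, 37 had H3K9ac at the start in both states. These genes are short, near-identical copies in clusters, so reads can be lost or split between them, and their values are uncertain.

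Among all 11182 genes with H3K9ac at the start in both states, 68.9% (68.0 to 69.7) kept H3K4me3, 17.0% (16.3 to 17.7) gained it, 1.99% (1.73 to 2.26) lost it and 12.2% (11.6 to 12.8) had none in either state.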
